A study of Mus musculus with 5 samples.

Results

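The sites described here are stretches of accessible chromatin that at least 1 DNase-seq peak list held as a single peak and at least 1 other list divided into 2 or more. They were chosen by merging the peaks of 3 distinct lists wherever peaks overlapped by at least 1 bp, and by keeping merged sites under 4000 bp wide with a peak in all 3 lists, exactly 1 peak in at least 1 list and several in another. This left 1363 sites of the 52181 merged sites in all. They made up 4.40% of the 30993 sites under that width with a peak in all 3 lists (Wilson 95% interval 4.18% to 4.63%). Of the others, 29565 were a single peak in each list and 65 were divided in all 3. The number of peaks per list chose the sites, so counts by list are a description and carry no test. All positions are on the mouse build mm9, counted from 1.

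The cells were 3T9 fibroblasts, mouse embryonic fibroblasts from embryonic day 13.5 that were immortalised by serial passage, on a mixed strain background. In both groups the endogenous c-Myc alleles were floxed and the cells had been infected in culture with MycER, a fusion of Myc to the hormone-binding part of the estrogen receptor that 4-hydroxytamoxifen (4-OHT) activates. The treated group had 2 libraries given 400 nM 4-OHT, with 4 h in both titles, and the control group had 2 libraries given ethanol (EtOH) and titled 0 h. The time of 4-OHT replicate 2 comes from its title only. Nuclei were digested with DNase I at a strength chosen by qPCR, and short fragments were sequenced. A further input of sonicated genomic DNA had no peak list used here. Peaks carry no gene names, so the cell type was not checked against marker genes. Nothing in the labels says whether the libraries came from separate cultures.

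DNase I cuts DNA most readily where nucleosomes have been displaced, usually at promoters, enhancers and insulators bound by transcription factors. Myc is a transcription factor that binds E-box motifs at promoters and enhancers, most of them already accessible. Regulatory elements often lie close together, with short protected stretches between them. A peak caller of the MACS type moves a window along the genome, joins overlapping windows that hold more reads than expected, and reports each joined stretch as 1 peak. Neighbouring elements therefore appear as 1 wide peak where the signal between them stays above the threshold and as several peaks where it drops below.

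The 4 deposited lists held 3 distinct ones, since 4-OHT replicate 1 and EtOH replicate 2 had the same intervals and scores. That repeated list bears both treatment labels and is called ambiguous. The 4-OHT list is 4-OHT replicate 2 and the vehicle list is EtOH replicate 1. Each treatment thus had 1 list of undisputed label, and no difference between them has a replicate check. There were 47621 peaks in the 4-OHT list, 44956 in the ambiguous one and 35149 in the vehicle list, with median widths of 1136, 1215 and 1222 bp. Read depth is unknown and list lengths differed, so the part of either in the counts that follow cannot be told apart from treatment.

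Most of the sites were divided in 1 list only. The 4-OHT list alone divided 433 sites (31.8% of the 1363, Wilson 95% interval 29.4% to 34.3%), the ambiguous list alone 191 (14.0%, 12.3% to 16.0%) and the vehicle list alone 332 (24.4%, 22.2% to 26.7%). Among the sites divided in 2 lists, 256 were divided in the 4-OHT and vehicle lists while the ambiguous list held 1 peak. The order of the lists changed when they were cut to equal length, which removed low-scoring peaks of the 4-OHT and ambiguous lists only. With each list cut to its 35149 highest-scoring peaks, the 4-OHT list alone divided 204 sites, the ambiguous list alone 98 and the vehicle list alone 384. With all peaks, the ambiguous list shared its division with the vehicle list at 85 sites and with the 4-OHT list at 66. Counted by list, 755 of the 1363 sites had several 4-OHT peaks, 342 several ambiguous peaks and 673 several vehicle peaks. The intervals count sites as if independent, which adjacent sites may not be, and cover nothing but counting error.

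Division into more than 2 peaks was rare. Only 15 of the 1363 sites had 3 peaks in any list and none had more. A pair of these had 3 peaks in 2 lists at once, on chromosome 11 at 72301798 to 72305526 (4-OHT and ambiguous lists) and on chromosome 15 at 84509279 to 84512994 (4-OHT and vehicle lists). Gaps inside the 15 sites ran from 1 to 479 bp.

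The share of gaps covered by the single peak of another list differed with the list that held it. The peaks of a list fell in 1 merged site only where peaks of other lists joined them, so part of each share follows from the selection. At sites divided in 1 list alone, no gap was left unspanned by both single peaks. Where the 4-OHT list had 2 peaks and the ambiguous list 1, that 1 peak spanned the gap and reached both peaks at 671 of 683 sites (98.2%). The single ambiguous peak also spanned 573 of 583 gaps of the vehicle list (98.3%). The single 4-OHT peak spanned 389 of 414 gaps of the vehicle list (94.0%, 91.2% to 95.9%). The single vehicle peak spanned only 273 of 495 gaps of the 4-OHT list (55.2%, 50.7% to 59.5%) and 132 of 253 gaps of the ambiguous list (52.2%, 46.0% to 58.3%). The difference between the vehicle and 4-OHT peaks was smaller when the lists were cut to equal length. With each list cut to its 35149 highest-scoring peaks, the vehicle peak spanned 69.6% of 4-OHT gaps and the 4-OHT peak 87.5% of vehicle gaps.

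At sites where it did not span the gap, the vehicle peak usually lay over the higher of the 2 peaks and the weaker neighbour had no counterpart. The single vehicle peak reached the higher 4-OHT peak alone at 208 of the 495 sites (42.0%) and the lower one alone at 14. The lower 4-OHT peak had a median score of 123 at those 208 sites, and of 179 at the 273 sites where the vehicle peak spanned the gap. The gaps were also wider where only the higher peak was reached, with a median of 110.5 bp, against 50 bp where they were spanned. The sites with 1 vehicle peak thus held both kinds, vehicle peaks that ran over both 4-OHT peaks and vehicle peaks over 1 of the 2. Of the 1348 sites with exactly 2 peaks wherever they were divided, 958 (71.1%) had the gap spanned by every single peak of the other lists. Part of this share is built in, most of all where 2 lists divided a site and only 1 was left to join the peaks.

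**Figure D1:**
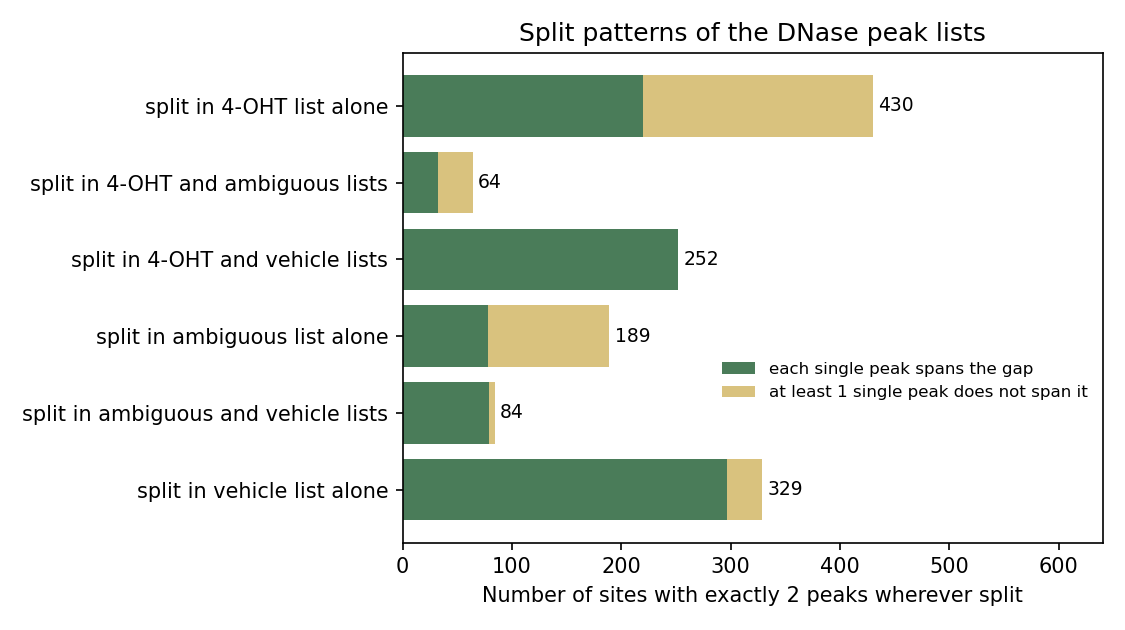
Sites with exactly 2 peaks wherever split, by the lists that split them. The horizontal axis is the number of sites, green bars are sites where each single peak of the other lists spans the gap and yellow bars are the rest. Yellow makes up 210 of the 430 sites split in the 4-OHT list alone, 32 of the 329 split in the vehicle list alone and none of the 252 split in the 4-OHT and vehicle lists.

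Between the 2 lists of undisputed label, 499 sites were divided in the 4-OHT list and single in the vehicle list, or 1.61% of the 30993 shared sites under 4000 bp, and 417 were divided in the vehicle list and single in the 4-OHT list, or 1.35%. The order of these counts turned under some criteria and not under others. The 4-OHT list still divided more, at 359 and 240 for sites under 3000 bp, 397 and 322 for scores of at least 100, 419 and 410 for an overlap of 50%, 572 and 569 without a width limit and 492 and 404 on autosomes. It turned under 4 others. Counting sites with exactly 2 peaks whose gap the other list's peak spanned, there were 273 divided in the 4-OHT list and 389 divided in the vehicle list. With each list cut to its 35149 highest-scoring peaks the counts were 226 and 451. When peaks of a list less than 200 bp apart were joined first they were 196 and 217, and without the ambiguous list (4-OHT replicate 1, also EtOH replicate 2) they were 295 and 422. No direction with treatment can be read from these counts.

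The ambiguous list held 1 peak at most sites where the other 2 disagreed, as it did at most shared sites. It divided 151 of these 916 sites (16.5%), against 407 of all 30993 shared sites under 4000 bp (1.31%). It was single at 433 of the 499 sites divided in the 4-OHT list (86.8%, 83.5% to 89.5%) and at 332 of the 417 divided in the vehicle list (79.6%, 75.5% to 83.2%). Summed over the peaks of a site, the median covered width at the 1363 sites was 2425 bp for 4-OHT peaks, 2539 bp for ambiguous peaks and 2093 bp for vehicle peaks. Of the 820 shared sites divided in the 4-OHT list, 321 (39.1%) were divided in the vehicle list too, which is 43.5% of the 738 divided there. The ambiguous list divided 131 of those 820 (16.0%) and 150 of those 738 (20.3%). Over all shared sites under 4000 bp, the 4-OHT list divided 2.65%, the vehicle list 2.38% and the ambiguous list 1.31%. Each overlap was thus above the share over all shared sites. Each list divided wider sites more often, and the part of width in these overlaps was not tested.

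The clearest divisions were taken as the 2 sites of each pattern whose weakest peak in any list scored highest. Scores are those deposited with the peaks, and in MACS the score grows with the negative log10 of the peak's p-value. Many peaks share the value 3100. On chromosome 3 at 95084527 to 95088317, the 4-OHT list had peaks of 2134 and 1965 separated by 113 bp. There was 1 ambiguous peak of 3100 there and 1 vehicle peak of 3006. On chromosome 17 at 84482381 to 84486344, the 4-OHT peaks scored 1483 and 2173 across a gap of 41 bp, the single ambiguous peak 3100 and the single vehicle peak 1893. High-scoring called peaks stood on both sides of the gap at these sites, with each single peak of the other lists running across it. Whether the 2 peaks are separate elements was not tested.

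Sites divided in the vehicle list alone gave the mirror case. On chromosome 8 at 72424771 to 72428357, the 4-OHT and ambiguous lists each had 1 peak of 3100, and the vehicle list had peaks of 2769 and 2511 with 30 bp between them. On chromosome 6 at 97158983 to 97162927 the single peaks again scored 3100 in both lists, and the vehicle peaks 1849 and 1559 with a gap of 36 bp. These gaps are narrower than the DNA wrapped by a nucleosome.

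At the 2 sites named for division in the 4-OHT and vehicle lists, the gaps of both lists lay close together. On chromosome 4 at 149193946 to 149197518, the first 4-OHT peak ended at 149195395, with 77 bp to the next (scores 3100 and 2466). The first vehicle peak ended at 149195433, with 62 bp to the next (2580 and 1907). The ambiguous list spanned the site with 1 peak of 3100. On chromosome 8 at 87548404 to 87551795, the gap was 65 bp between the 4-OHT peaks (2333 and 2438) and 42 bp between the vehicle peaks (1535 and 1557), again under 1 ambiguous peak of 3100.

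The list with the fewest divisions also broke strong sites. On chromosome 5 at 67008693 to 67012398, the ambiguous list had peaks of 3100 and 1881 only 9 bp apart, and the 4-OHT and vehicle lists 1 peak of 3100 each. On chromosome 1 at 137263131 to 137266331 its peaks of 1136 and 854 were 2 bp apart, against a single 4-OHT peak of 2009 and a single vehicle peak of 1101. A gap of this size leaves the 2 peaks almost touching.

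Division in the ambiguous list and 1 other list was seen on chromosome 9 at 65971639 to 65975449. There the 4-OHT list had 1 peak of 3100, while 603 bp lay between the ambiguous peaks (3100 and 2185) and 671 bp between the vehicle peaks (2107 and 1687). On chromosome 6 at 92890852 to 92894237, 1 peak of 2369 in the 4-OHT list stood against ambiguous peaks 127 bp apart (1652 and 2548) and vehicle peaks 261 bp apart (873 and 756). With the 4-OHT list in the pair, chromosome 11 at 101502073 to 101504756 had 4-OHT peaks 164 bp apart (1205 and 2661), ambiguous peaks 159 bp apart (1378 and 1609) and 1 vehicle peak of 2660. The gap had the same right edge in both lists, where the second peak began at 101503224. On the same chromosome at 106991460 to 106994490, the 4-OHT peaks were 18 bp apart and the ambiguous peaks 103 bp, under 1 vehicle peak of 1094.

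**Figure D2:**
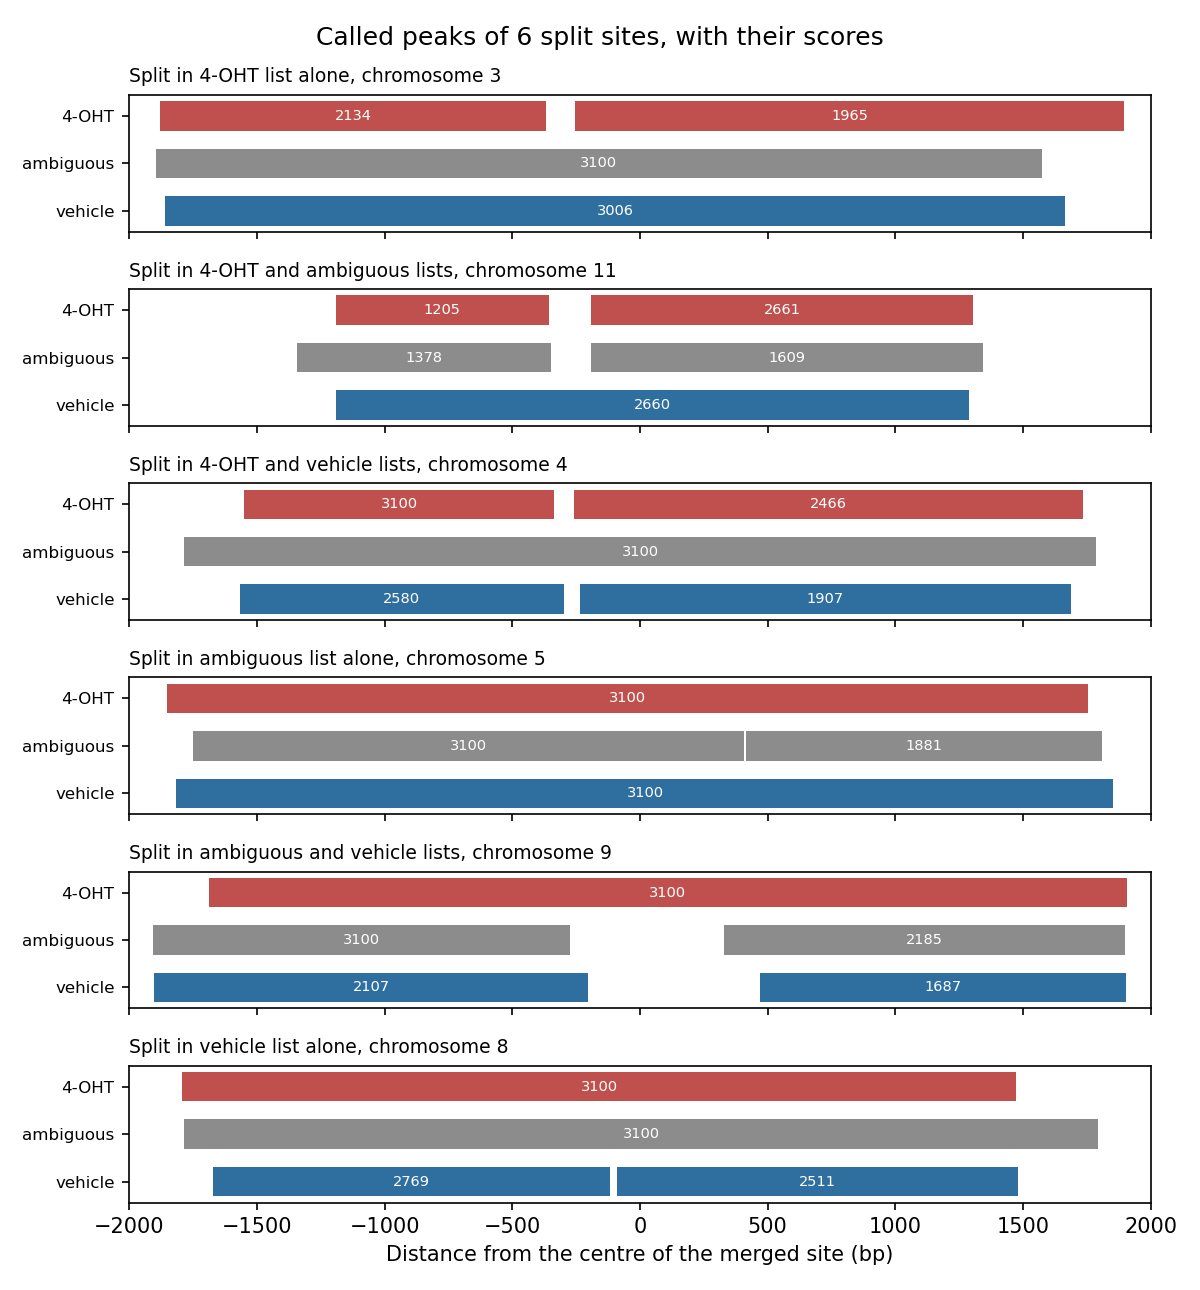
Called peaks at the first-ranked site of each split pattern, in the 4-OHT list (red), the ambiguous list (grey) and the vehicle list (blue). The horizontal axis is the distance in bp from the centre of the merged site, each bar is a peak and the number in it its score. Gaps range from 9 bp at the chromosome 5 site to 671 bp at the chromosome 9 site.

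The gaps were short. The median gap was 79.5 bp between 4-OHT peaks (762 gaps, central 50% from 31.25 to 162 bp), 56 bp between ambiguous peaks (347 gaps, 24.5 to 129.5 bp) and 91 bp between vehicle peaks (678 gaps, 39 to 195 bp). These ranges overlapped widely. Over all lists, 1031 of 1787 gaps (57.7%, 55.4% to 60.0%) were under 100 bp, and 165 (9.23%, 7.98% to 10.7%) were 10 bp or less. At least 200 bp, more than a nucleosome covers, separated the peaks in 138 of the 4-OHT gaps (18.1%), 54 of the ambiguous gaps (15.6%) and 165 of the vehicle gaps (24.3%). Among the 6 patterns, wide gaps were most frequent in the vehicle list where it and the ambiguous list divided a site together, at 34 of 85 gaps. At sites with 2 peaks, gaps took 4.98% of the bases from the first peak to the last for 4-OHT peaks, 3.84% for ambiguous peaks and 5.85% for vehicle peaks.

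**Figure D3:**
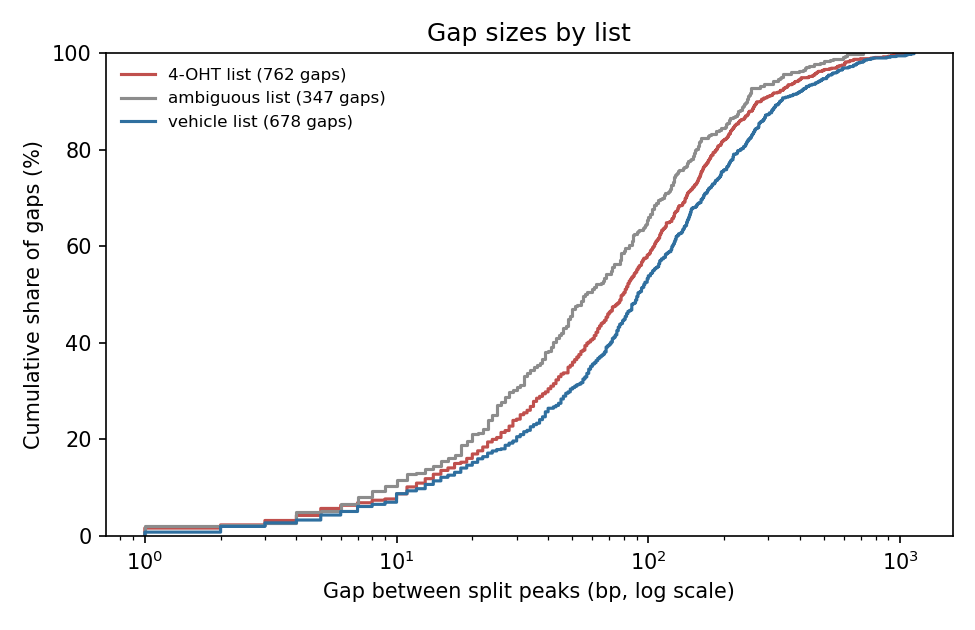
Cumulative share of gaps (vertical axis, %) by gap size (horizontal axis, bp, log scale), with 1 line for each list. The 4-OHT list reaches 50% at 79.5 bp, the ambiguous list at 56 bp and the vehicle list at 91 bp.

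The closer adjacent peaks of a list lay, the more often they belonged to the divided sites. Of adjacent 4-OHT peaks less than 50 bp apart, 269 of 463 pairs (58.1%) belonged to the 1363 sites, and of those 200 to 500 bp apart 111 of 1235 (8.99%). In the ambiguous list these shares were 37.2% and 4.05%, and in the vehicle list 69.6% and 19.3%. The share fell with distance in each list, and the limit of 4000 bp also removes pairs that lie in wider sites. A pair enters a site only where peaks of other lists join it, so part of this fall may follow from the selection.

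Where 2 lists divided the same site, their gaps overlapped at some sites and not at others. They overlapped at 204 of 252 sites with 2 peaks in each of the 4-OHT and vehicle lists (81.0%, 75.7% to 85.3%), and the midpoints of the gaps lay a median of 39.5 bp apart. Overlap was less frequent between the ambiguous and vehicle lists, at 56 of 84 sites (66.7%, 56.1% to 75.8%, midpoints 81.25 bp apart). For the 4-OHT and ambiguous lists it was 28 of 64 (43.75%, 32.3% to 55.9%, 75.75 bp). At equal list length these shares were 80.6% for the 4-OHT and vehicle lists, 67.2% for the ambiguous and vehicle lists and 66.7% for the 4-OHT and ambiguous lists, so the difference between the last 2 pairs did not hold. The higher-scoring peak lay on the same side of the gap in both lists at 225 of the 252 sites (89.3%), 74 of the 84 (88.1%) and 56 of the 64 (87.5%). Gaps at one merged site must fall within the same few kilobases and between peaks of some width, so part of this overlap follows from the selection.

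The 3 sites with the widest gaps carried mostly low scores. On chromosome 19 at 57255114 to 57258824, the 4-OHT peaks of 105 and 133 were 925 bp apart and the vehicle peaks of 87.1 and 107 were 1137 bp apart, while the ambiguous list ran 1 peak of 285 over 2950 bp. On chromosome 17 at 29305508 to 29308868 the gap was 432 bp between 4-OHT peaks (505 and 508) and 1106 bp between vehicle peaks (122 and 135.5), under 1 ambiguous peak of 1024. On chromosome 2 at 130965773 to 130969093 the 4-OHT peaks of 80.5 and 359 lay 1126 bp apart. There the ambiguous peak reached the first of these by only 4 bp, and the vehicle peak (97.8) lay within the second.

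Of the 15 sites with 3 peaks, the 3 first in genome order each combined a stronger peak with a weaker one. On chromosome 2 at 26493165 to 26496814, the 4-OHT and ambiguous lists each had 1 peak of 3100, and the vehicle list had peaks of 104, 185 and 3065 with gaps of 147 and 111 bp. On chromosome 4 at 46462912 to 46466350, the 4-OHT peaks of 2162, 107 and 750 were 3 and 109 bp apart, with a single ambiguous peak of 3100 and a single vehicle peak of 2136. On chromosome 7 at 31933416 to 31937349, the vehicle peaks of 144, 125 and 696 stood under a single 4-OHT peak of 1435 and a single ambiguous peak of 2539.

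The 2 peaks of a site were sorted by score, so a higher and a lower median are built in and are given as a description. Over sites with 2 peaks in the list, the higher peak had a median score of 881 and the lower 179 in the 4-OHT list (748 sites), 847 and 148 in the ambiguous list (337 sites), and 659 and 154 in the vehicle list (668 sites). Ranked among all peaks of their own list, the lower 4-OHT peaks stood at a median percentile of 32.9 and the higher ones at 70.6. For ambiguous peaks these were 24.2 and 66.0, and for vehicle peaks 27.1 and 64.7. The higher score exceeded the lower by a median factor of 3.65 among 4-OHT pairs, 3.83 among ambiguous pairs and 3.22 among vehicle pairs. Scores of different lists depend on their depth, so raw scores should not be compared between lists. Percentiles within a list also depend on its length. Ratios are limited by the lowest score of 80 and by the many peaks at 3100.

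Pairs of near-equal peaks were a minority in each list. The factor between the 2 scores was under 2 at 217 of 748 sites of the 4-OHT list (29.0%, 25.9% to 32.4%), 94 of 337 of the ambiguous list (27.9%, 23.4% to 32.9%) and 222 of 668 of the vehicle list (33.2%, 29.8% to 36.9%). It was 10 or more at 149 sites with 2 4-OHT peaks (19.9%), 89 with 2 ambiguous peaks (26.4%) and 124 with 2 vehicle peaks (18.6%). The lower peak scored under 100, close to the lowest score of 80 in the files, at 18.0% of 4-OHT sites, 20.8% of ambiguous sites and 19.9% of vehicle sites. None of these lower peaks reached 3100, but the higher 4-OHT peak did at 119 sites (15.9%), the higher ambiguous peak at 61 (18.1%) and the higher vehicle peak at 61 (9.13%). The lower peak was also the narrower one by the medians, at 958 bp against 1337 bp for 4-OHT, 968 against 1440 bp for ambiguous and 974 against 1323.5 bp for vehicle peaks.

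**Figure D4:**
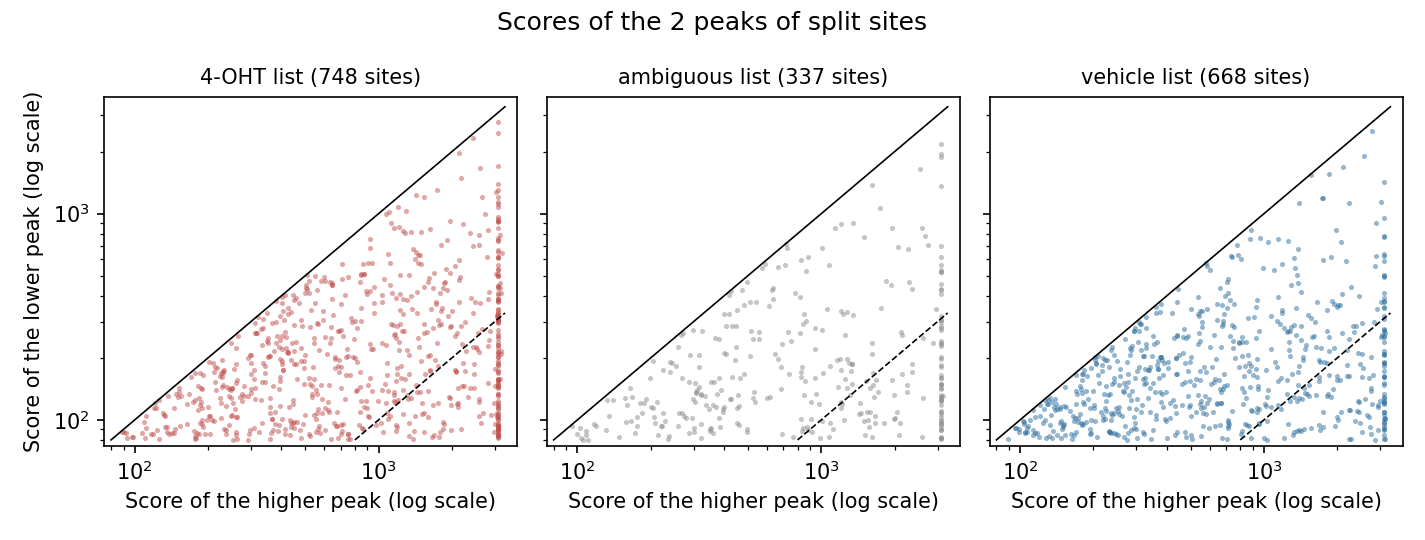
Score of the lower peak (vertical axis, log scale) against that of the higher peak (horizontal axis, log scale) at sites with exactly 2 peaks, 1 point per site and 1 panel per list. The solid line marks equal scores and the dashed line a factor of 10, and points line up at 3100, where scores pile up. Points fill the range from equal scores to factors over 10 in each panel.

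Median lower scores lay between 128 and 216 over all gap sizes and lists. In the 4-OHT list the median lower score was 176 for gaps under 50 bp, 216 from 50 to 100 bp, 172 from 100 to 200 bp and 164 from 200 bp. For ambiguous peaks these medians were 143, 144, 169 and 128, and for vehicle peaks 153, 157, 155 and 152. The median higher score was lowest for gaps of at least 200 bp in all 3 lists, at 745 for 4-OHT, 623 for ambiguous and 560 for vehicle peaks.

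Few of the 1363 sites were strong throughout or weak throughout. Every peak in every list scored at least 500 at 89 sites (6.53%) and at least 1000 at 18 (1.32%). Every peak scored under 500 at 216 sites (15.8%) and under 200 at 21 (1.54%). The weakest site lay on chromosome 4 at 128432721 to 128434533, with 4-OHT peaks of 117 and 85.8 separated by 53 bp, 1 ambiguous peak of 90.9 and 1 vehicle peak of 95.4. The next was on chromosome 11 at 100267266 to 100268856, with 1 4-OHT peak of 127, ambiguous peaks of 99.7 and 85.8 separated by 34 bp, and 1 vehicle peak of 95.2 that overlapped both of them. On chromosome 16 at 57339330 to 57341160 the 4-OHT peaks of 88.9 and 123 were 31 bp apart, under a single vehicle peak of 96.6. The single ambiguous peak of 130 covered all of the first 4-OHT peak and reached the second by 3 bp.

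The median rank of the sites lay above that of single-peak sites in each list. The best 4-OHT peak of a site stood at a median percentile of 73.2 at the 1363 sites, against 64.8 at the 29565 sites with 1 peak in each list. For ambiguous peaks these were 74.2 and 62.7, and for vehicle peaks 62.1 and 52.2. The share with a best score of at least 3100 was 16.5% of the 1363 sites, against 14.0% of single-peak sites, in the 4-OHT list. In the ambiguous list it was 26.4%, against 18.8%, and in the vehicle list 8.58%, against 7.56%. The divided sites were also wider, and the part of width in these ranks was not tested. Ranks also differed between patterns. At the 332 sites divided in the vehicle list alone, the best peak stood at a median percentile of 78.0 among 4-OHT peaks, 78.9 among ambiguous peaks and 64.7 among vehicle peaks. At the 433 sites divided in the 4-OHT list alone, these were 68.5, 73.0 and 61.5. At the 191 sites divided in the ambiguous list alone they were 67.2, 65.7 and 56.0. Such percentiles depend on the length of each list and should not be compared between lists. Ranked among the sites with a peak in all lists, the 433 sites stood at a median of 53.4 by 4-OHT score and 58.1 by vehicle score. The 332 sites stood at 67.3 and 61.5, the 191 at 51.5 and 52.2, and single-peak sites at 48.1 and 48.2.

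Ranks of the sites in the 4-OHT and vehicle lists depended on how their peaks were scored. Sites were ranked by their best peak among the 31871 sites with a peak in all lists, of which 14.2% ranked at least 10 percentile points higher by their 4-OHT score than by their vehicle score and 12.9% lower. Of the 1363 sites, 244 ranked higher (17.9%) and 173 lower (12.7%), close to that background for the lower side. Of the sites divided in the 4-OHT list and single in the vehicle list, 51 of 499 ranked higher (10.2%) and 97 lower (19.4%) in the 4-OHT list. Of those divided in the vehicle list and single in the 4-OHT list, 128 of 417 ranked higher (30.7%) and 20 lower (4.80%). When the scores of a site's peaks were summed in place of taking the best, the first class had 30.7% higher and 5.61% lower, and the second 3.84% higher and 12.0% lower. All shared sites had 14.1% higher and 12.6% lower by summed scores. The excess over the background thus changed sides for the first class. For the second class it was gone, and the share ranking higher fell below the background. No change in accessibility can be read from either class.

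Wider sites were divided more often. The median width was 2704 bp for the 1363 sites and 1498 bp for single-peak sites. The share of shared sites divided by some lists only was 0.164% (0.105% to 0.256%) at 1000 to 1500 bp, 1.92% (1.64% to 2.24%) at 1500 to 2000 bp and 7.93% (7.18% to 8.76%) at 2000 to 2500 bp. It was 15.8% (14.3% to 17.4%) at 2500 to 3000 bp, 29.1% (26.5% to 31.9%) at 3000 to 3500 bp and 32.4% (28.6% to 36.4%) at 3500 to 4000 bp. A site of several peaks must be as wide as those peaks and their gap together, so a low share at small widths is built in. The 4-OHT list divided 4.98% of sites at 2000 to 2500 bp, against 3.84% for the vehicle list. At 3500 to 4000 bp the order was the other way, with 18.1% for the 4-OHT list and 23.3% for the vehicle list. The share also varied with score, less than with width. By the lowest of a site's 3 best scores, 2.73% (2.43% to 3.06%) of sites under 200 were divided, 5.74% (5.09% to 6.46%) at 500 to 1000 and 4.94% (4.14% to 5.90%) at 3100 or more.

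**Figure D5:**
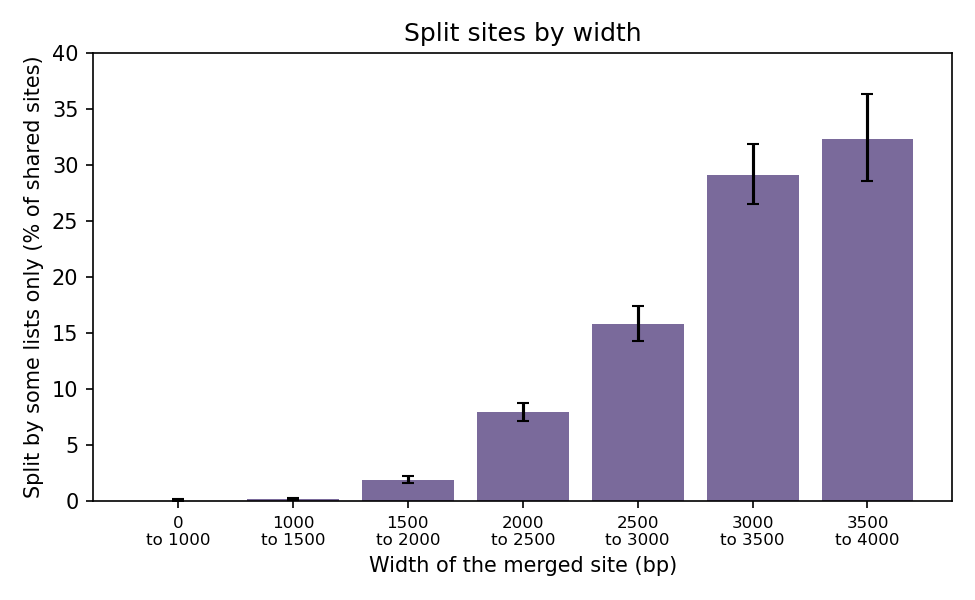
Share of sites with a peak in all 3 lists that some lists, but not all, divided (vertical axis, %), by width of the merged site (horizontal axis, bp). Bars are shares and error bars Wilson 95% intervals, and the shares range from 0.0307% under 1000 bp to 32.4% at 3500 to 4000 bp.

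Sites just inside the width limit were 3995 bp on chromosome 11 (101947282 to 101951276), 3993 bp on chromosome 17 (25150257 to 25154249) and 3986 bp on chromosome 9 (106786424 to 106790409). At each, 1 list had a peak over 3000 beside a lower one. The first had 4-OHT peaks of 101 and 3100 separated by 25 bp, the second vehicle peaks of 208 and 3100 separated by 176 bp, and the third vehicle peaks of 371 and 3011 separated by 329 bp. Just outside lay sites of 4001 bp on chromosome 3 (4-OHT peaks of 179 and 3100, gap 32 bp), 4002 bp on chromosome 11 (4-OHT peaks of 729 and 331, gap 35 bp) and 4009 bp on chromosome 19 (vehicle peaks of 253 and 127, gap 12 bp). In all, 378 sites of at least 4000 bp would have met the other criteria.

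The 65 sites divided in all 3 lists were the nearest kind for comparison. The median width was 2704 bp for the 1363 sites and 2991 bp for the 65. The median gap between 4-OHT peaks was 79.5 bp at the 1363 sites and 113 bp at the 65. Between ambiguous peaks it was 56 and 51 bp, and between vehicle peaks 91 and 167 bp. Lower 4-OHT peaks scored a median of 179 at the 1363 sites and 285 at the 65. For ambiguous peaks these medians were 148 and 322, and for vehicle peaks 154 and 138. As the number of dividing lists chose both sets, these differences are a description.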

How the data were processed

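DNase-seq peak lists of 4 libraries were analysed, 2 treated with 4-OHT and 2 with vehicle. Per the submitters' processing notes, BWA 0.6.2, SAMtools and MACS 1.4.1 were used with build mm9. Settings, the use of the input and any scaling of depth are not given in the sources used here. The score deposited with a peak was read as growing with −log10 p, as MACS writes it, since the lists have no header that says so. Positions were deposited in BED form.

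Peaks were merged with Python 3.11.15 (numpy 2.4.6, scipy 1.17.1, figures with matplotlib 3.10.9), and the 52181 sites equalled those of bedtools 2.31.1. A gap is the bases between consecutive peaks of a list in a site. Shares carry Wilson 95% intervals. The script was tested on 5100 simulated sites, of which all 1400 divided ones (100%) and their gaps were recovered.

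The members and lists were chosen with earlier results of these data known. Named were, with ties in genome order, the 2 sites per pattern with the highest lowest score, and 3 each with the widest gap, the most peaks, the lowest scores and the widths nearest 4000 bp on either side. Tables of genes and promoters on another build were not used, and no sequence of mm9 was analysed here. Alternatives were another width limit, a score of at least 100, equal list length, an overlap of 50%, joining of close peaks, autosomes only, leaving out each list, exactly 2 peaks, summed scores and a larger rank difference.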

Additional observations from a re-analysis of the deposited data

How the results depend on the processing

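Of 134 recomputed values of 29 results, 78 stayed within 1.5 times (counts) or inside the interval of the original value (medians and shares). No value has a test, and depth is unknown, so a missing or joined peak cannot be told from shallow sequencing.

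A width limit of 3000 bp left 867 sites, with 37 divided in the 4-OHT and ambiguous lists, 147 in the 4-OHT and vehicle lists, 121 in the ambiguous list alone, 41 in the ambiguous and vehicle lists and 199 in the vehicle list alone, and 240 divided in the vehicle and single in the 4-OHT list, since fewer sites enter. Median gaps were then 69 bp in the 4-OHT list and 79.5 bp in the vehicle list. Median higher and lower scores were 642 and 158 for 4-OHT, 496 and 132 for ambiguous and 432 and 136 for vehicle peaks. Without a width limit, 136 sites were divided in the ambiguous and vehicle lists. An overlap of 50% of the shorter peak left 32 divided in the 4-OHT and ambiguous lists.

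Joining peaks less than 200 bp apart left 618 sites, with 169 in the 4-OHT list alone, 27 in the 4-OHT and ambiguous lists, 114 in the 4-OHT and vehicle lists, 91 in the ambiguous list alone, 42 in the ambiguous and vehicle lists and 175 in the vehicle list alone. The contrast was then 196 divided in the 4-OHT list alone of the 2 labelled lists and 217 in the vehicle list. Equal list length (35149 peaks) left 204 in the 4-OHT list alone, 22 in the 4-OHT and ambiguous lists and 98 in the ambiguous list alone, with the contrast at 226 and 451, as the lowest scores kept were 148 for 4-OHT and 138 for ambiguous peaks. Median higher and lower scores became 1197 and 294 for 4-OHT and 1111 and 258 for ambiguous peaks. The vehicle peak spanned 69.6% of 4-OHT gaps and the 4-OHT peak 87.5% of vehicle gaps at that length, and gaps of the 4-OHT and ambiguous lists overlapped at 66.7% (settings for spanning and overlap were added after seeing the data). A score of at least 100 gave median lower scores of 222 for 4-OHT, 184 for ambiguous and 180 for vehicle peaks, and a higher score of 1079 for 4-OHT peaks. Except where fewer sites or peaks entered by construction, the cause was not tested.

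Leaving out each list gave 717 to 1022 sites (741 without 4-OHT replicate 2), with the contrast at 295 and 422 without the ambiguous list (4-OHT replicate 1), and no contrast without either of the others. Median gaps and scores were not recomputed without a list.

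Summed scores put 9.24% of all 1363 sites lower in the 4-OHT list. They put 30.7% of sites divided in the 4-OHT list higher and 5.61% lower, and 3.84% and 12.0% of sites divided in the vehicle list, against 14.1% and 12.6% of all shared sites. At 20 percentile points, 6.09% of the 1363 sites were higher and 3.30% lower, against 3.56% and 3.08% of all shared sites. These shares were 4.21% and 5.61% of sites divided in the 4-OHT list, and 9.11% and 0.719% of those divided in the vehicle list. At equal length 20.8% of the sites ranked higher, against 17.9% with all peaks, and 12.2% ranked lower. All shared sites had 14.3% higher and 12.6% lower at that length. No paired analysis was possible because the repeated list sits in both replicate pairs.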

Other observations

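Divided sites were spread over the genome. Their share of shared sites under 4000 bp lay between 3.18% on chromosome 13 (43 of 1354, Wilson 95% interval 2.37% to 4.25%) and 5.18% on chromosome X (30 of 579, 3.65% to 7.30%), with 4.38% over the autosomes (4.16% to 4.62%). The intervals of these extremes overlap each other. Chromosomes 17 and 2 followed X, at 4.99% (70 of 1402) and 4.98% (128 of 2569).

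Divided sites lay somewhat nearer to other accessible sites. The nearest other merged site was a median of 4761 bp away, against 5745 bp for sites with 1 peak in each list. A neighbour lay within 1000 bp at 20.1% of divided sites (274 of 1363, 18.1% to 22.3%) and at 15.5% of single-peak sites (15.1% to 15.9%). In 38 cases 2 divided sites were next to each other in the list of merged sites. Distances were measured from the edges of the sites, and divided sites are wider.

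The higher peak came first along the chromosome at 345 of 748 sites of the 4-OHT list (46.1%, 42.6% to 49.7%), 167 of 337 of the ambiguous list (49.6%, 44.3% to 54.9%) and 331 of 668 of the vehicle list (49.6%, 45.8% to 53.3%). The interval lies below 50% for the 4-OHT list and includes it for the other two.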
